A study of Mus musculus with 34 samples.

Results

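RNA from the cortex of mice whose brain myeloid cells had largely been replaced by bone marrow-derived cells was compared with RNA from the cortex of untreated mice. Attention was given to the genes that fell and to genes that the study did not name as its monocyte signature. The comparison took in 7 of the 34 libraries of the series, 4 of GFP-BM REPOP mice (GFP-BM, marrow expressing green fluorescent protein; REPOP, repopulated) and 3 of WT CON mice, chosen by the region and condition in their labels. All mice were male C57BL/6. Their age at irradiation is given differently in separate places of the study and is not stated here. WT CON mice were neither irradiated nor transplanted and received no PLX3397. GFP-BM REPOP mice received 1000 cGy of whole body irradiation and marrow from CAG-EGFP donors, in which a ubiquitous promoter drives the fluorescent protein, and 3.5 months later PLX3397, an inhibitor of the receptor CSF1R, at 600 ppm in the diet for 14 days, followed by 6 months of recovery. The GFP-BM CON group, 4 cortex libraries, had the irradiation and transplant alone. Irradiation, transplant, inhibitor and donor cells therefore cannot be told apart in GFP-BM REPOP against WT CON, and the GFP-BM CON values are given beside it. By staining, the study found replacement in GFP-BM REPOP brains extensive but not complete, with pockets of remaining microglia. It also found donor-derived cells in GFP-BM CON brains, as a smaller part of the parenchymal myeloid cells, so that group was not free of them.

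Microglia are the resident macrophages of the brain parenchyma, arise from yolk sac precursors and need CSF1R signaling to survive. When they are removed and the marrow has been replaced, monocytes from the blood can enter and persist as macrophages that keep part of the expression program of the marrow lineage, such as the Ms4a genes, and lack part of the microglial one. The cortex itself is made up mostly of neurons, astrocytes and oligodendrocytes, so a myeloid transcript is a small share of the RNA. In bulk tissue, fewer cells of a type and less RNA per cell cannot be told apart.

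The cortex libraries held between 18370251 and 26000532 recovered reads, with per-gene precision limited by counting for genes of few reads. Cortical projection neuron markers summed to between 836 and 942 FPKM (fragments per kilobase of transcript, scaled to library size) in every cortex library. The libraries of WT CON replicate 2 and GFP-BM REPOP replicate 1 stood apart, with median correlations to the other cortex libraries of 0.9723 and 0.9797 against 0.9833 or more, and with GC measures (the log2 level of GC-rich genes minus that of GC-poor genes) of 1.319 and 1.006 against 0.474 to 0.908. Choroid plexus markers, which come from tissue next to the cortex, summed to 419 to 461 FPKM in WT CON, 52.5 to 415 in GFP-BM CON and 55.1 to 375 in GFP-BM REPOP. Their mean log2 level differed by -0.97 between GFP-BM REPOP and WT CON (exact permutation test, two-sided, p = 0.114, adjusted p = 0.714 over 7 marker lists), and their part in the changes below was not tested.

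Of 14138 genes tested, 110 passed an adjusted p of 0.05 (limma-trend with Benjamini-Hochberg adjustment), which is 0.778% of those tested. Among them 52 were lower in GFP-BM REPOP (0.368%) and 58 were higher (0.41%). The falls had a median size of 0.52 on the log2 scale, with 25 of the 52 under 0.5 and 12 beyond 1, and the rises had a median of 0.81, with 25 of the 58 beyond 1. The text of the study names 25 genes for its signature, counting Apoe and Clec7a, which it gives only as members of its signature co-expression module. Of the 25, 19 were tested and 17 passed here, Apoe among them. Since that signature was chosen on these samples, its members are not independent evidence of their direction. Outside it, 46 genes were lower and 47 higher. Each of the 110 had no overlap between the 3 WT CON and 4 GFP-BM REPOP libraries, against 4.65% of all genes tested with every GFP-BM REPOP library below every WT CON library and 4.97% above.

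**Figure D1:**
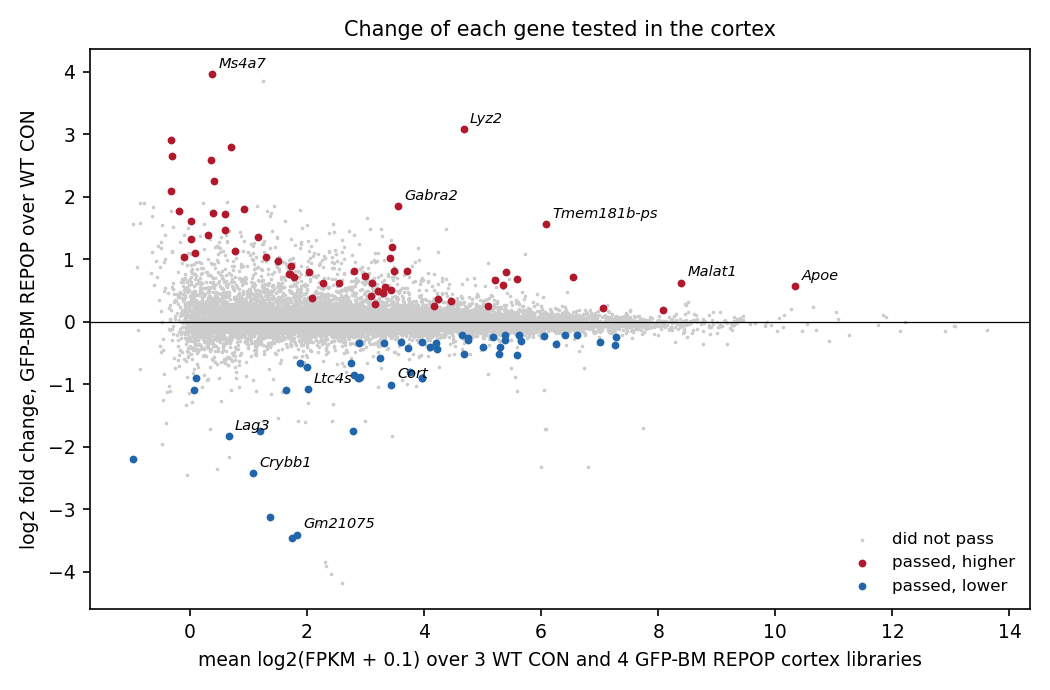
The log2 fold change of each of the 14138 genes tested (GFP-BM REPOP over WT CON, vertical axis) is plotted against its mean log2(FPKM + 0.1) over the 7 libraries (horizontal axis), with the 58 genes that passed as higher in red and the 52 as lower in blue. Rises reach 3.96 for Ms4a7 and 3.09 for Lyz2, and the labelled falls reach -3.40 for Gm21075 and -2.42 for Crybb1.

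These counts depended on the libraries that set the spread. The fit also used the GFP-BM CON libraries to estimate it, and with the 2 compared groups alone 9 of the 52 lower and 12 of the 58 higher genes passed. When each of the 7 libraries was left out in turn, 13 lower genes passed every time (among them Crybb1, Selplg, Lag3, Siglech, Ltc4s, Atf4, Asns, Bex1, Dusp14, Gls2, Nudt3 and Ubald1), as did 21 higher ones. The total ranged from 48 without WT CON replicate 1 to 253 without GFP-BM REPOP replicate 1, and 401 genes passed without the 2 libraries that stood apart. In the fit of all 9 groups of the series, 3 of those 13 lower genes passed (Crybb1, Lag3 and Selplg), as did 13 of the 21 higher ones, so that passing all 7 leave-one-out fits did not mean passing under every setting. For most genes below that passed, the number of the 7 fits passed is given, with the largest adjusted p of those 7 where any was failed. In the fit of all 9 groups, 11 of the 52 lower and 15 of the 58 higher genes passed. Failures there are given for part of the genes only, so a gene given below without that value can have failed it too. Csf1r, Cort, Slc7a5, Fosl2 and Apoe are examples, and so are Rgs10 (0.91), Cars (0.83) and Gabra2 (0.22).

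Microglial genes formed the clearest group among those that fell. Of 38 genes listed as homeostatic microglia genes, 34 were tested, 10 were lower, none was higher, and the median log2 fold change was -0.35 beside 0.02 over all genes tested. For 20 of the 34 the highest GFP-BM REPOP value was under the lowest WT CON value, as it was for 4.65% of all genes. In the fit of the 2 compared groups alone 4 members were lower, in the fit of all 9 groups of the series 5, and without WT CON replicate 1, 6. Leaving out the 6 that the study names as its signature, 4 of the remaining 28 were lower (among them Ltc4s, Tmem119 and Csf1r) and their median was -0.25. In GFP-BM CON over WT CON the median of the 34 was -0.15.

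Ltc4s encodes leukotriene C4 synthase, the enzyme that makes the inflammatory lipid leukotriene C4 (chromosome 11, 50236461 to 50238532, GRCm38). Its level was 5.72, 6.35 and 6.15 FPKM in the WT CON libraries and 3.18, 2.64, 2.62 and 2.92 in the GFP-BM REPOP libraries. No library of one group came near the other, and the mean fell to 46.8% of WT CON (log2 fold change -1.07, SE 0.13, adjusted p = 0.0033, passed 7 of 7, but 1.0 in the fit of all 9 groups). GFP-BM CON lay between them, from 3.41 to 5.16. These levels rest on 75 to 88 reads in a WT CON library and 27 to 36 in a GFP-BM REPOP library.

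Tmem119, whose protein is a standard marker of resident microglia and was stained in the study, measured 11, 8.67 and 9.52 FPKM in WT CON and 7.22, 4.88, 4.61 and 4.88 in GFP-BM REPOP. The first GFP-BM REPOP library was well above the other 3 and yet below every WT CON library. The log2 fold change was -0.86 (SE 0.14, adjusted p = 0.017), and the gene passed 3 of 7 fits, failing without WT CON replicate 1 or 3 or GFP-BM REPOP replicate 3 or 4 with an adjusted p of up to 0.082.

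Csf1r, the receptor that PLX3397 blocks, was 20.1, 19.1 and 20.7 FPKM in WT CON and 16.1, 13.9, 15.5 and 15.1 in GFP-BM REPOP. It fell by 0.40 on the log2 scale (SE 0.07, adjusted p = 0.02, passed 3 of 7, up to 0.086 without one library). In GFP-BM CON, which never received the inhibitor, it was 10.8 to 12.8 FPKM (log2 fold change over WT CON -0.74, adjusted p = 0.0025), and GFP-BM REPOP exceeded that group by 0.35, which did not pass (adjusted p = 0.10). Rgs10, a regulator of G protein signaling found in microglia but not on the list, was 22.6, 22.4 and 21.1 in WT CON and 18.6, 14.0, 16.1 and 16.7 in GFP-BM REPOP (log2 fold change -0.43, SE 0.09, adjusted p = 0.044). It passed only 1 of 7 fits, with an adjusted p of up to 0.15, and was picked out after its values were seen.

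Of the 6 signature genes that passed as lower, Crybb1, a crystallin gene of unclear role in microglia, had the largest change, from 6.42, 3.98 and 6.16 FPKM to 1.25, 0.79, 1.14 and 0.656 (log2 fold change -2.42, SE 0.25, adjusted p = 0.0018). Lag3, an inhibitory receptor of the immunoglobulin family, dropped to 27.1% of WT CON, from 3.00, 3.01 and 3.51 to 0.907, 1.18, 0.895 and 0.468 (log2 fold change -1.82, SE 0.26, adjusted p = 0.0093). Selplg, the ligand of P-selectin, changed by -1.75 (SE 0.22, adjusted p = 0.0041). Siglech, a sialic acid-binding lectin of microglia, changed by -1.09 (SE 0.12, adjusted p = 0.0018). Each of these 4 passed 7 of 7 fits, and Siglech missed the threshold in the fit of all 9 groups (0.075).

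Slc2a5, a fructose transporter, is also a signature gene. It measured 1.65, 1.49 and 1.45 FPKM in WT CON, 1.38 to 1.67 in GFP-BM CON, and 0.687, 0.891, 0.498 and 0.623 in GFP-BM REPOP. Only the last group stood apart, and the log2 fold change was -1.09 against WT CON (SE 0.17, adjusted p = 0.015, passed 5 of 7, failing without WT CON replicate 1 or 2 with up to 0.074). It was 1 of 7 genes (0.0495% of those tested) that passed against GFP-BM CON, at -1.10 (adjusted p = 0.049). Itgam, the integrin subunit CD11b of microglia, monocytes and neutrophils, changed by -0.65 (SE 0.13, adjusted p = 0.046, passed 2 of 7, up to 0.15).

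Other members did not pass. P2ry12, the ADP receptor of microglial processes, was 8.52, 5.11 and 9.26 FPKM in WT CON and had a mean of 4.62 ± 0.735 (SD, n = 4) in GFP-BM REPOP (log2 fold change -0.68, adjusted p = 0.15), and passed 1 of 7 fits, the one without WT CON replicate 2, its lowest WT CON library. Sall1, the transcription factor that holds microglial identity, changed by -0.54 (SE 0.17, adjusted p = 0.21) and Cst3, the protease inhibitor cystatin C, by -0.36 (SE 0.08, adjusted p = 0.057), both without overlap between the groups. Fcrls and Cd33 had positive values, 0.18 and 0.22, with overlap.

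**Figure D2:**
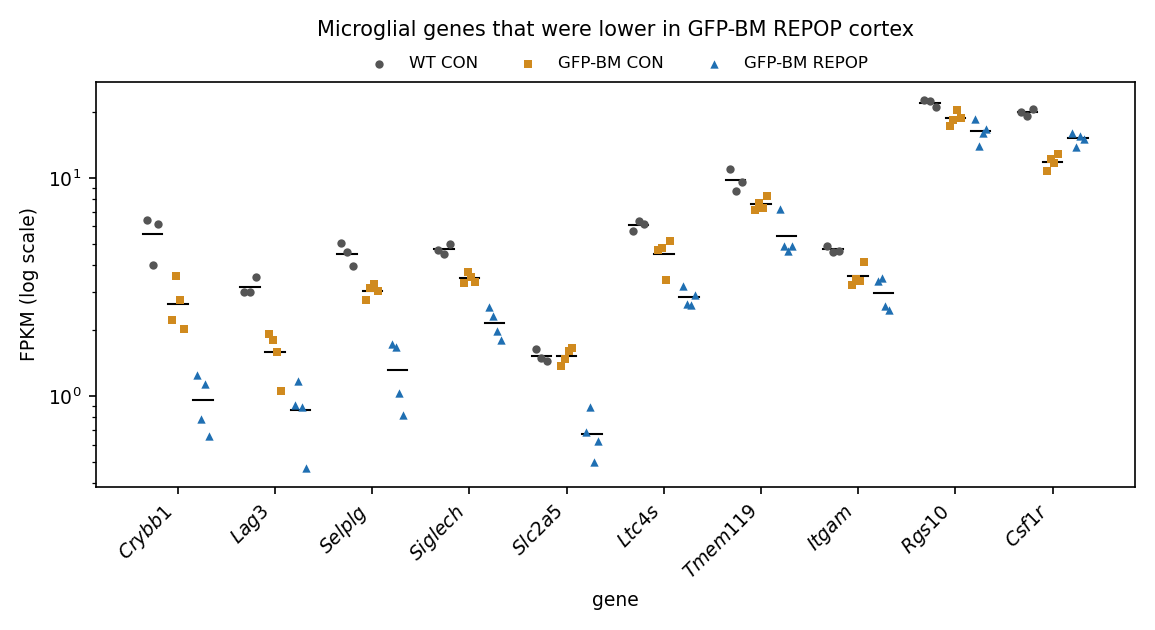
FPKM on a log axis of 10 microglial genes that passed as lower, in the 3 WT CON (grey circles), 4 GFP-BM CON (orange squares) and 4 GFP-BM REPOP (blue triangles) cortex libraries, with the group mean as a bar. GFP-BM REPOP points lie below all WT CON points for each gene, Slc2a5 alone has GFP-BM CON points level with WT CON, and Csf1r has GFP-BM CON points below GFP-BM REPOP.

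A second group of genes that fell belongs to amino acid supply. ATF4 is the transcription factor made when amino acids run short or the endoplasmic reticulum is stressed, and it switches on transporters, asparagine synthetase and tRNA synthetases. Of 25 genes listed as ATF4 targets and one-carbon enzymes, 23 were tested, 4 were lower (Atf4, Asns, Slc7a5 and Slc7a3), none was higher, and the median was -0.18 beside 0.02 over all genes. In GFP-BM CON over WT CON the list median was -0.2. In GFP-BM REPOP, 18 of the 23 had a negative value. All 9 members without overlap lay below WT CON, beside 4.65% of all genes tested below and 4.97% above. The count rested on the shared spread: 1 member was lower in the fit of the 2 compared groups, none in the fit of all 9 groups, and 2 without any one of the WT CON libraries.

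Atf4 itself (chromosome 15, 80255184 to 80257545) measured 44.0, 51.1 and 48.0 FPKM in WT CON and 32.0, 34.8, 32.8 and 33.2 in GFP-BM REPOP. It fell to 69.6% of WT CON (log2 fold change -0.52, SE 0.06, adjusted p = 0.0026, 7 of 7, 0.065 in the fit of all 9 groups). The GFP-BM CON libraries were as low, 31.0 to 35.4 FPKM (log2 fold change over WT CON -0.50, adjusted p = 0.0098). Asns, which makes asparagine from aspartate and glutamine, was 55.4, 60.1 and 55.9 against 44.8, 46.7, 44.5 and 48.1 (log2 fold change -0.31, SE 0.04, adjusted p = 0.009, 7 of 7, but 0.053 with the 2 compared groups alone and 0.78 with all 9). Here too GFP-BM CON, 42.7 to 45.9, lay as far below WT CON as GFP-BM REPOP did.

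Slc7a3 carries arginine and other cationic amino acids. It was 5.16, 5.42 and 5.11 FPKM in WT CON and 3.35, 3.54, 2.52 and 3.19 in GFP-BM REPOP (log2 fold change -0.73, SE 0.14, adjusted p = 0.04), but passed only 2 of 7 fits, with up to 0.12. Slc7a5, the large neutral amino acid transporter of the blood-brain barrier and of neurons, was 20.3, 21.4 and 21.4 against 16.3, 16.8, 17.5 and 15.9 (log2 fold change -0.34, SE 0.06, adjusted p = 0.021, passed 3 of 7, up to 0.083). Chac1 and Mthfd2, an enzyme of glutathione breakdown and a mitochondrial folate enzyme, did not pass at -0.63 (adjusted p = 0.064) and -0.55 (adjusted p = 0.14).

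Among 19 cytosolic tRNA synthetase genes, a family picked by symbol after 3 of its members were seen to pass, those 3 were lower and none was higher, and the median was -0.07 over a range of -0.33 to 0.20. Cars, which charges cysteine, fell from 16.5, 17.9 and 18.7 FPKM to 15, 13.4, 14.2 and 13.7 (log2 fold change -0.33, SE 0.06, adjusted p = 0.026, passed 2 of 7, up to 0.10). Yars, for tyrosine, changed by -0.24 (adjusted p = 0.027, passed 3 of 7, up to 0.11) and Nars, for asparagine, by -0.21 (adjusted p = 0.02, passed 4 of 7, up to 0.080). The groups did not overlap for any of the 3, as was so for all 110 genes that passed, so this adds nothing to their passing. In GFP-BM CON over WT CON the changes were -0.35 for Cars, -0.29 for Yars and -0.23 for Nars.

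The best known ATF4 site is the composite element shared with C/EBP factors, and the 250 bases before the start of Asns show what it looks like. It is given here as an illustration. In the RefSeq promoter table (build GRCm38.p6) TGATGNAA, read on both strands of 300 bases around each start, occurred in 3.97% of all 32851 promoters and in 2.16% of those of genes tested here. Among the ATF4 genes tested with an entry, 6 of 22 held it (Aars, Asns, Chac1, Nupr1, Pck2 and Slc7a11), and of 35 entries for genes that were lower, 3 did (Asns, Fam205a2 and Yars). The sequence of Asns is shown because this gene passed all 7 leave-one-out fits and holds the element, which is in capitals 23 to 16 bases before the start, at chr6:7693210-7693459 on the minus strand. A match is a description of letters and not a measured site. The ATF4 list was made up of genes chosen as targets of this factor, so its share of matches is not a result of these data. Whether ATF4 had a part in the falls was not tested.

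Asns: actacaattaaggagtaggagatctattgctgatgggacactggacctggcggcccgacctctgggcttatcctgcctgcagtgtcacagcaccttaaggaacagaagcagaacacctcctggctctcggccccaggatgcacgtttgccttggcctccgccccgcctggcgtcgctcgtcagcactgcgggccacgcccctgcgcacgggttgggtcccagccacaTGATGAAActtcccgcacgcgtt

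Cort and Fosl2 were the members of the interneuron and immediate early gene lists that were lower. Cort, the peptide cortistatin made by a subset of cortical interneurons, was 12.8, 19.8 and 16.4 FPKM in WT CON and 6.88, 9.34, 8.10 and 7.74 in GFP-BM REPOP. The mean was near one level in both transplanted groups, 8.01 in GFP-BM REPOP and 8.10 in GFP-BM CON, and the log2 fold change over WT CON was -1.0 (SE 0.16, adjusted p = 0.015, passed 5 of 7, failing without WT CON replicate 2 or 3 with up to 0.059). It was the 1 of 20 interneuron genes tested that passed, and the list had a median of -0.05. Sst, the related peptide somatostatin, was at -0.14 (adjusted p = 0.45).

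Of 20 immediate early genes, which neurons transcribe within minutes of firing, 18 had negative values and the median was -0.52 beside 0.02 over all genes. The list had nearly the same median in GFP-BM CON over WT CON, -0.5, where no inhibitor was given. In GFP-BM REPOP only Fosl2 passed. It was 8.04, 8.69 and 9.18 FPKM in WT CON against 5.36, 5.15, 5.16 and 6.00 (log2 fold change -0.66, SE 0.12, adjusted p = 0.029, passed 2 of 7, up to 0.11). Egr1, at 119, 158 and 151 against 55.9, 85.5, 103 and 109, did not pass at -0.73 (SE 0.20, adjusted p = 0.14), nor did Nr4a1 at -1.11 (SE 0.36, adjusted p = 0.22). In both, GFP-BM REPOP replicate 1 was the lowest library. Vgf, a secreted peptide precursor of neurons, changed by -0.32 (adjusted p = 0.039, passed 2 of 7, up to 0.12).

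**Figure D3:**
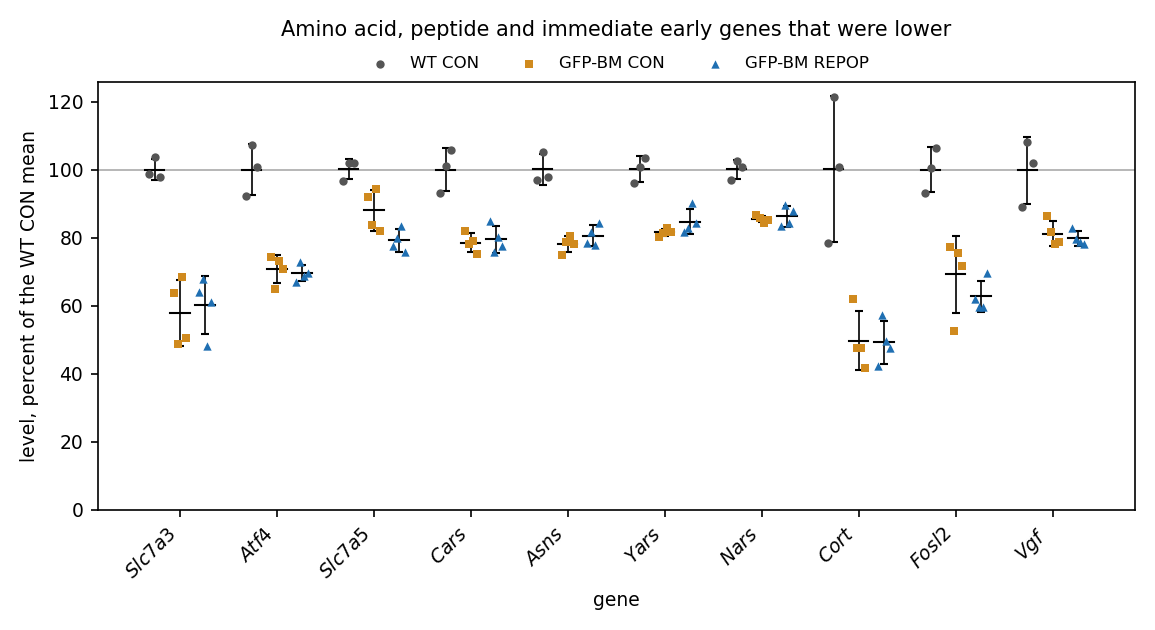
Each library's level as a percent of the WT CON mean (vertical axis from 0) for 7 amino acid supply genes, the peptides Cort and Vgf, and Fosl2, with group mean and SD, in the 3 WT CON (grey), 4 GFP-BM CON (orange) and 4 GFP-BM REPOP (blue) cortex libraries. Every GFP-BM REPOP point lies under the WT CON points, and the GFP-BM CON means of Atf4 (33.8 FPKM) and Cort (8.10 FPKM) are close to those of GFP-BM REPOP (33.2 and 8.01 FPKM).

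The remaining falls that passed all 7 fits were in genes on none of the lists and the sizes were up to 0.53 on the log2 scale. Bex1, a small adaptor protein of neurons, went from 56.1, 59.6 and 61.4 FPKM to 37.5, 41.3, 41.3 and 43.8 (log2 fold change -0.53, SE 0.07, adjusted p = 0.0054). Dusp14, a phosphatase that acts on MAP kinases, went from 36.3, 37.7 and 38.8 to 27.5, 28.5, 27.5 and 30 (-0.40, SE 0.06, adjusted p = 0.009). Gls2, a glutaminase, went from 13.4, 13.8 and 14.3 to 11, 10.8, 10.9 and 11.3 (-0.33, SE 0.04, adjusted p = 0.0075). Its GFP-BM CON libraries were near the same low level, 11.2 to 11.5 FPKM. GFP-BM CON values of the other genes in this paragraph are not given here. Nudt3, an inositol polyphosphate hydrolase, and Ubald1 changed by -0.37 and -0.36 (adjusted p = 0.0093 and 0.0033). Adar, the RNA-editing deaminase, changed by -0.29 (adjusted p = 0.012) and failed the fit without WT CON replicate 1, at 0.053. In the fit of all 9 groups none of Bex1 (0.32), Dusp14 (1.0), Gls2 (0.63), Nudt3 (0.83) and Ubald1 (1.0) passed. Snrpc, a protein of the U1 splicing particle, changed by -0.52 (adjusted p = 0.014, passed 5 of 7, up to 0.061).

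Larger falls were seen in genes with near-identical copies, whose reads the counting could have assigned to any copy, and their values are uncertain for that reason. Gm21075 was 16.1, 9.54 and 16.5 FPKM in WT CON and 0.722, 6.17, 0.677 and 0.611 in GFP-BM REPOP. Replicate 2 was thus nearest to WT CON and the other 3 were all under 1 FPKM. The log2 fold change was -3.40 (SE 0.62, adjusted p = 0.029), and the gene passed only 2 of 7 fits, with up to 0.12. Gm10790 was 1.08, 1.18 and 1.11 against 0.184, 0.406, 0.117 and 0.0614 (log2 fold change -2.20, SE 0.33, adjusted p = 0.012, passed 6 of 7, 0.053 without WT CON replicate 1), and reached the filter only through WT CON. A further 4 lower genes were listed by an ID with no symbol, with changes from -0.79 to -3.46, and each passed 1 or 2 of the 7 fits.

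The chemokine gene Ccl21b, which the study names in its signature, showed the same mouse apart but did not pass. It was 24.3, 37.9 and 34.5 FPKM in WT CON, 24.8 to 26.4 in GFP-BM CON, and 0.687, 24.1, 0.719 and 0.502 in GFP-BM REPOP (log2 fold change -4.18, SE 0.99, adjusted p = 0.088). Gm13304, a neighbor of Ccl21b, had the same split, 0.658, 18, 0.689 and 0.481.

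Around Ccl21b on chromosome 4 (GRCm38), 5 genes between 41942295 and 42537578 were lower together: Fam205a2, Fam205a3, Fam205a4, Gm21093 and Gm3883, of 12 genes tested in that span. Their log2 fold changes were between -0.88 and -0.91, and Gm21093 went from 24.4, 20.4 and 22.1 FPKM to 9.94, 15.6, 10.8 and 11.6 (SE 0.13, adjusted p = 0.0099). Replicate 2 was again the highest of the GFP-BM REPOP libraries. All 5 failed the fit without WT CON replicate 1, with an adjusted p between 0.053 and 0.073. Since these copies can share reads, the 5 values are not independent of each other.

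**Figure D4:**
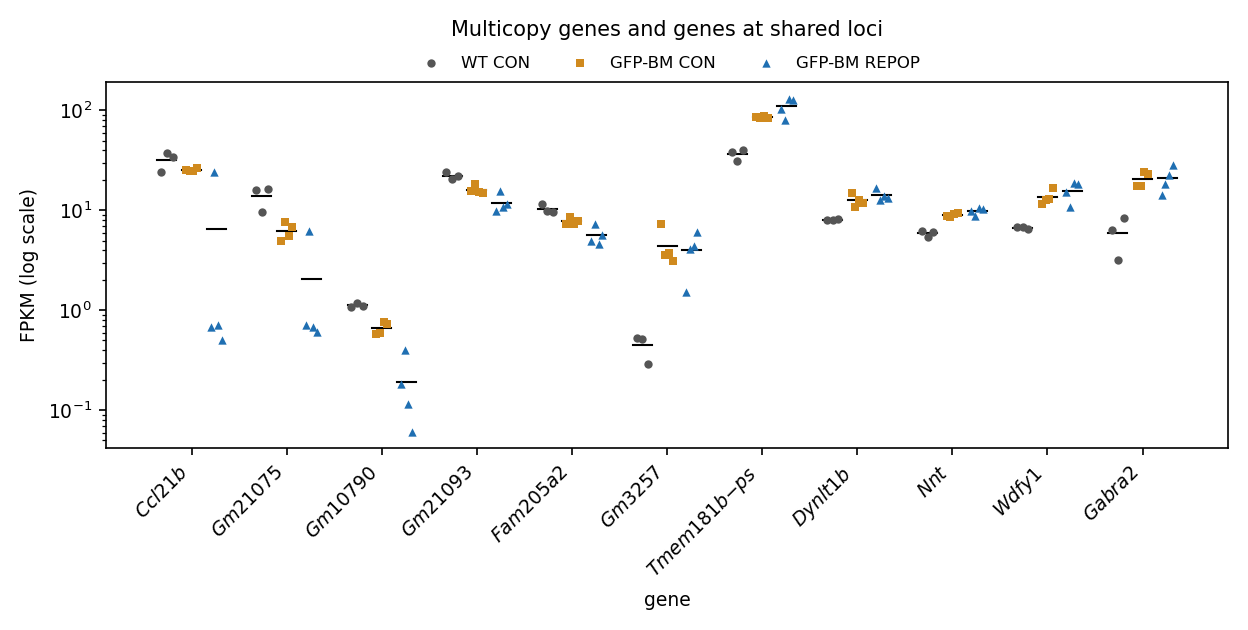
FPKM on a log axis of genes with near-identical copies or at shared loci, and of Nnt, Wdfy1 and Gabra2, in the 3 WT CON (grey circles), 4 GFP-BM CON (orange squares) and 4 GFP-BM REPOP (blue triangles) cortex libraries, with group means as bars. For Ccl21b and Gm21075 a single GFP-BM REPOP point (24.1 and 6.17 FPKM) lies far above the other 3, while Tmem181b-ps, Nnt, Wdfy1 and Gabra2 are higher in both transplanted groups.

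Genes that rose included another set of neighbors. On chromosome 17, Tmem181a, Dynlt1b, Tmem181b-ps and Tmem181c-ps, between 6256726 and 6620925, were 4 of 7 genes tested there and all were higher. The pseudogene Tmem181b-ps, which has near-identical copies and is uncertain for that reason, went from 38.8, 31.2 and 39.9 FPKM to 104, 79.7, 131 and 126 (log2 fold change 1.57, SE 0.14, adjusted p = 0.001, 7 of 7), with 84.5 to 87.4 in GFP-BM CON. Dynlt1b, a dynein light chain, went from 7.97, 7.94 and 8.15 to 16.6, 12.8, 14.1 and 13.2 (0.81, SE 0.11, adjusted p = 0.0075, 7 of 7, 0.16 in the fit of all 9 groups), with 10.7 to 15 in GFP-BM CON. Tmem181a (0.58) and Tmem181c-ps (0.90) passed 5 of 7, with up to 0.062. The Tmem181 copies can share reads, and Dynlt1b overlaps Tmem181b-ps in position. The 4 values therefore cannot be taken as independent of each other.

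Nnt and Wdfy1, both in the signature the study names, are genes known to differ between C57BL/6 substrains. Nnt, the mitochondrial transhydrogenase, was 6.21, 5.40 and 6.13 FPKM in WT CON, 8.58 to 9.38 in GFP-BM CON and 9.80, 8.70, 10.5 and 10.4 in GFP-BM REPOP (log2 fold change 0.73, SE 0.08, adjusted p = 0.002, 7 of 7). Wdfy1 was 6.84, 6.77 and 6.51 against 11.5 to 16.8 in GFP-BM CON and 15.2, 10.9, 18.6 and 18.3 in GFP-BM REPOP (1.19, SE 0.17, adjusted p = 0.0093, 7 of 7). The levels of both genes were thus higher in both transplanted groups. Entpd4, on the same list, was at -0.83 (SE 0.17, adjusted p = 0.056) and did not pass.

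A further set of higher genes is given with its value after correction for GC content, because the libraries differed in GC measure. Gabra2, an alpha subunit of the GABA-A receptor, was 6.38, 3.16 and 8.48 FPKM in WT CON and 14.3, 18.3, 22.6 and 28.4 in GFP-BM REPOP (log2 fold change 1.85, SE 0.30, adjusted p = 0.017, passed 5 of 7, up to 0.059), and the lowest library of each group was the one with the highest GC measure in it. Corrected for GC content and length, its change was 1.5 (adjusted p = 0.0022). Zbtb20, a transcriptional repressor, rose from 0.570, 0.622 and 0.496 to 1.40, 2.79, 2.09 and 2.42 (1.74, SE 0.20, adjusted p = 0.0029, 7 of 7, 0.19 in the fit of all 9 groups, 1.40 corrected). Malat1, an abundant nuclear RNA, was at 0.63 (adjusted p = 0.02, passed 2 of 7, up to 0.077) and Zbtb37 at 1.14 (adjusted p = 0.018, passed 3 of 7, up to 0.074). Corrected, Malat1 was at 0.45, past the threshold, and Zbtb37 at 0.78 (adjusted p = 0.13). In GFP-BM CON the means of Gabra2 and Zbtb20 differed from WT CON by 1.85 and 1.81.

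Ndn, necdin, an imprinted gene of neurons, was 59.1, 84.6 and 68.5 FPKM in WT CON and 115, 115, 107 and 122 in GFP-BM REPOP (log2 fold change 0.71, SE 0.10, adjusted p = 0.0075, 7 of 7), with 108 to 124 in GFP-BM CON. Ndn missed the threshold with the 2 compared groups alone (0.053) and with all 9 (0.075). The ribosomal RNA precursor Rn45s rose by 0.47 (SE 0.05, adjusted p = 0.0026, 7 of 7, 1.0 in the fit of all 9 groups). It and the predicted gene Gm3257, at 2.80 (SE 0.41, adjusted p = 0.0099, 7 of 7), can share reads with copies elsewhere. Gm3257 missed the threshold with the 2 compared groups alone (0.053) and with all 9 (0.14), among other settings.

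Myeloid genes were among the largest rises. Of 32 genes listed as marking bone marrow-derived macrophages, 25 were in the table and 20 were tested. Of those, 9 reached the filter on low values only through the GFP-BM REPOP libraries (Ms4a7, Ms4a6b, Ms4a6c, Apobec1, Mrc1, Lilrb4a, Clec12a, Cd38 and Cybb), so that they had to be higher to be tested at all, and the 7 of them that passed are given as a description. Of the other 11, Lyz2 and Tmem176a were higher and none was lower. Tmem176a, a membrane protein of myeloid cells, was at 0.50 (adjusted p = 0.035, passed 3 of 7, up to 0.13, and 1.0 in the fit of all 9 groups). Ms4a7, a membrane protein of the signature, was 0.0955, 0.185 and 0.262 FPKM in WT CON, from 2 to 6 reads a library, and 4.59, 4.16, 3.39 and 4.55 in GFP-BM REPOP (log2 fold change 3.96, SE 0.30, adjusted p = 0.00021). Lyz2, lysozyme M, whose reads can be shared with its copy Lyz1, was 7.55, 6.86 and 7.96 against 73.5, 51.7, 52.0 and 85.0 (3.09, SE 0.21, adjusted p = 9.3e-05). Both passed 7 of 7.

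Cybb, the catalytic subunit of the phagocyte NADPH oxidase, was 0.311, 0.0914 and 0.104 FPKM in WT CON, from 10 to 33 reads, and 1.82, 1.09, 1.98 and 2.58 in GFP-BM REPOP. The lowest GFP-BM REPOP library was above the highest of the other groups, 0.610 in GFP-BM CON (log2 fold change over WT CON 2.90, SE 0.35, adjusted p = 0.0033, 7 of 7). Cxcl16, a chemokine that is also a scavenger receptor, rose from 0.623, 0.532 and 0.604 to 1.44, 1.29, 1.26 and 1.53 (1.11, SE 0.15, adjusted p = 0.0075, 7 of 7), with 0.651 to 0.768 in GFP-BM CON, and it too was tested only because its GFP-BM REPOP values passed the filter. It missed the threshold with the 2 compared groups (0.053) and with all 9 (0.20). Cd300ld3, a receptor gene in a tandem family whose copies can share reads, was 0.547, 0.412 and 0.389 against 2.88, 2.26, 2.16 and 2.75 (2.25, SE 0.22, adjusted p = 0.0013, 7 of 7), with GFP-BM CON already at 1.24 to 2.44.

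Adgre1, Mpeg1 and Stab1 were also higher. Adgre1, which encodes the macrophage antigen F4/80, was 1.60, 1.57 and 1.42 FPKM in WT CON and 3.15, 2.51, 3.34 and 4.24 in GFP-BM REPOP (1.04, SE 0.16, adjusted p = 0.012, passed 6 of 7, 0.053 without WT CON replicate 3). Mpeg1, the pore-forming perforin-2, was 7.52, 6.43 and 6.17 against 9.90, 8.99, 10.2 and 12.4 (0.62, SE 0.10, adjusted p = 0.017, passed 4 of 7, up to 0.075). Stab1, a scavenger receptor of border macrophages and also of sinusoidal cells, changed by 0.76 (SE 0.13, adjusted p = 0.021, passed 4 of 7, up to 0.062). In all 3, GFP-BM CON was level with WT CON, at -0.06, -0.08 and 0.05 on the log2 scale. Of the 9 border macrophage markers, 8 were in the table and 3 were tested, 2 of them (Mrc1 and Pf4) only through GFP-BM REPOP.

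Complement gene C4b, made by astrocytes and other cells and similar to its copy C4a, was 11.4, 8.13 and 9.10 FPKM in WT CON and 18.6, 18.4, 15.3 and 14.5 in GFP-BM REPOP (0.81, SE 0.12, adjusted p = 0.012, 7 of 7, but 0.060 with the 2 compared groups and 1.0 with all 9), with 10 to 12.5 in GFP-BM CON. Bst2, tetherin, changed by 0.81 (adjusted p = 0.044) and passed 1 of 7 fits, with up to 0.13. It was the 1 of 14 interferon-stimulated genes tested that passed, and that list had a median of -0.03. None of 14 antigen presentation genes tested passed. Of 16 disease-associated microglia genes, which include the lipid carrier Apoe, only Apoe passed (0.57, SE 0.08, adjusted p = 0.0099, passed 6 of 7, 0.053 without WT CON replicate 1), with a list median of 0.02.

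**Figure D5:**
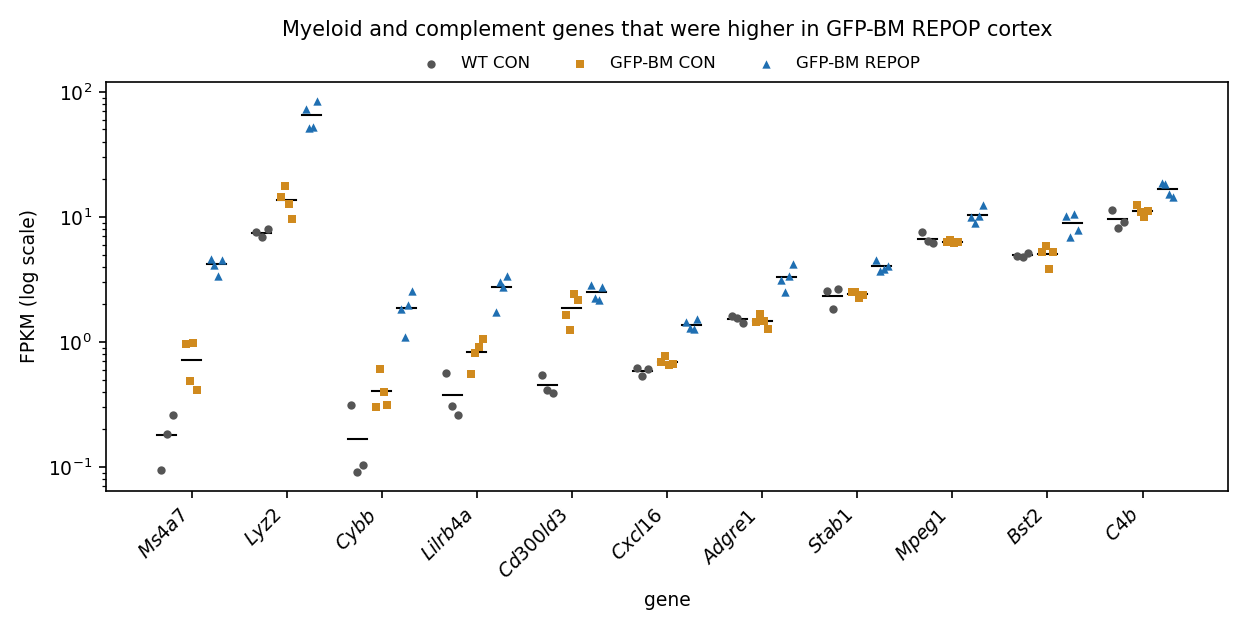
FPKM on a log axis of 11 myeloid and complement genes that passed as higher, in the 3 WT CON (grey circles), 4 GFP-BM CON (orange squares) and 4 GFP-BM REPOP (blue triangles) cortex libraries, with group means as bars. For Adgre1, Stab1 and Mpeg1 the GFP-BM CON points lie level with WT CON, and for Cd300ld3 they overlap GFP-BM REPOP.

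Most other gene lists had few or no members past the threshold. None passed among 31 synapse scaffold and vesicle genes (median 0.03), 16 cortical projection neuron markers (0.02), 15 oligodendrocyte genes (-0.06), 14 oligodendrocyte precursor genes (-0.02), 19 endothelial and barrier genes (-0.09), 19 p53 targets (0.01), 17 circadian clock genes (-0.03), 18 sterol synthesis genes (-0.04), 14 heat shock and chaperone genes (-0.05) or 15 extracellular matrix genes (0.03). Of 15 tested genes whose proteins the study stained, Tmem119 passed. Gfap, the intermediate filament of astrocytes, was at 0.41 (adjusted p = 0.33), Dlg4, the postsynaptic scaffold PSD-95, at -0.05 (adjusted p = 0.56), and Spi1, the myeloid factor PU.1, at 0.08 (adjusted p = 0.92), a value that turned negative under other settings. A p that misses the threshold does not show that a level did not change.

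The same contrast was available in 2 other regions, the hippocampus and a region labelled thalamus. The study describes the latter as thalamus with striatum, and it is called thalamus here. Whether a change differed between regions was tested in 1 limma model of the 9 groups, with mouse as a random effect. It passed for 5 genes between cortex and hippocampus and for none between cortex and thalamus. Of the 14138 genes tested, 813 and 753 had an unadjusted p under 0.05 in these 2 tests. Both counts are near the share that this cutoff lets through when nothing differs. None of the 5 was among the 110. For Crybb1 the log2 fold change was -2.42 in cortex, -2.02 in hippocampus and -2.46 in thalamus, and for Lag3 -1.82, -1.66 and -1.87. Ltc4s had -1.07, -0.73 and -0.32, a difference from the thalamus of -0.74 (SE 0.62, adjusted p = 0.60). Atf4 had -0.52, -0.23 and -0.47, and Gls2 had -0.33 in the cortex but 0.31 in the hippocampus, a difference of -0.64 (SE 0.15) that did not pass (adjusted p = 0.17).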

How the data were processed

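The deposited table held FPKM values, per the labels and methods of the authors, who aligned paired reads with STAR v.2.5.1b (build mm10 per the labels), counted them per gene with featureCounts and scaled them to length and library size with edgeR and limma. RNA had passed an integrity cutoff. Which library was read on which instrument is not given in the sources used here. The steps between values corresponded to whole reads for 100.0% of values (tolerance 0.01 read), giving 17078177 to 26000532 reads per library over the series, and this recovery was checked on simulated data. Precision at this depth is limited mainly for genes of few reads.

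Groups came from the labels. Genes with an FPKM of at least 1 in at least 3 cortex libraries (14138 of 16389) were analysed as log2(FPKM + 0.1), a scale that understates changes of low genes, by limma-trend (limma 3.58.1, R 4.3.3), two-sided, in 1 fit of the 11 cortex libraries in 3 groups, with Benjamini-Hochberg adjustment over all genes tested and a threshold of 0.05. The fit was tested on simulated data. GFP-BM CON against WT CON and the regions used the same tools. Fold changes over WT CON share those libraries and are given side by side only. Positions are from RefSeq on GRCm38, matched for 15947 IDs. Tables were made with Python 3.11.15, numpy 2.4.6, pandas 2.3.3, scipy 1.17.1 and matplotlib 3.10.9.

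The members, gene lists and tests were chosen with earlier results of these data known. Named genes were the 20 lower and 15 higher genes with the smallest p outside 11 signature genes, members of the lists that passed, genes of stained proteins and the signature; others are named after their values were seen. What lies outside the signature was counted against the 25 genes the text of the study names, a list widened after the data were seen. Alternatives covered the pseudocount, filter, biotypes, scaling, samples in the fit, replicate block, trend, weights, voom on recovered reads, GC content and length (splines of 5 degrees of freedom, 13098 genes), and each library left out. Leaving out the 2 libraries that stood apart was added after the data were seen. Nothing in the labels ties a replicate to a culture or litter, so p-values measure the spread between these mice. Some genes that passed are not reported here by name.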

Additional observations from a re-analysis of the deposited data

Results flagged for a closer look

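Within the groups of 4 cortex libraries, 138 sets of values of named genes were examined for a library far from the other 3 (Dixon's test at the 95% level), and 8 were found, where chance gives about 1 in 20. In GFP-BM REPOP, Tmem119 was highest in replicate 1 at 7.22 FPKM with the next at 4.88, and Gm21075 was highest in replicate 2 at 6.17 with the next at 0.722. In GFP-BM CON, replicate 1 was highest for Gm3257 (7.31, next 3.72) and lowest for Apobec1 (0.658, next 0.84) and Spi1 (1.83, next 2.7). GFP-BM CON replicate 2 was highest for the chromosome 4 neighbors Gm21093 (18.4, next 15.6) and Gm3883 (18, next 15.2), which can share reads, and lowest for Gls2 (11.2, next 11.5), a gap of little size.

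The change from WT CON to GFP-BM REPOP differed between cortex and hippocampus for 5 genes (limma, all 9 groups, adjusted over 14138 genes). Osbpl1a, an oxysterol-binding protein, differed by -0.98 on the log2 scale (SE 0.19, adjusted p = 0.036), with means of 70.6 and 67.6 FPKM in the cortex and 23.7 and 45.3 in the hippocampus. Ldb2, a LIM domain-binding cofactor, differed by -1.5 (SE 0.28, adjusted p = 0.036) and Plxdc1 by -1.23 (SE 0.19, adjusted p = 0.011), both with higher hippocampal means in GFP-BM REPOP. Shisal1 differed by 1.25 (SE 0.23, adjusted p = 0.036) and Tunar by 1.46 (SE 0.27, adjusted p = 0.036), both with lower hippocampal means in GFP-BM REPOP. In the cortex none of the 5 passed, with changes from -0.17 to 0.43.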

How the results depend on the processing

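The number of genes that passed moved most with the libraries and the estimate of spread. Against 110 (58 higher, 52 lower), 23 passed with only the 2 groups (13 and 10), 27 with all 9 groups in one fit (15 and 12) and 170 with array quality weights (90 and 80). Lower genes numbered 34 without the trend and 82 after GC content and length correction. Leaving out each library gave 48 to 253 genes, 27 to 187 higher and 21 to 66 lower. Leaving out both libraries that stood apart, a choice made after seeing the data, gave 401 (320 and 81). With replicate number as a block, 40 passed (24 and 16), and 3 rather than 5 genes differed between cortex and hippocampus. The numbers did not pair the samples: same-numbered libraries correlated between -0.16 and 0.22 over 10 pairs, and 1 of 11 libraries correlated best with its own number. The cause of these movements was not tested.

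Of 1495 values of the 69 named genes under alternatives, 1313 kept direction and side of the threshold, 163 lost the threshold, 6 gained it and 13 changed sign. The sign changes were those of Sv2a and Spi1, neither past the threshold. Sv2a was 0.02 under quantile normalization, 0.0 with the replicate block, 0.03 with array weights, 0.01 after GC correction, 0.05 without both libraries and -0.02 to 0.03 with 1 library left out. Spi1 was -0.01 under quantile normalization, -0.04 with array weights, -0.12 without both libraries and -0.08 to 0.3 with 1 left out. Depth limited genes of few reads, such as Ms4a7 in WT CON.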

Other observations

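Markers of tissue next to the dissected cortex moved in one direction within a list without passing. All 10 striatum markers tested had negative values (median -0.36), and their sum was 385 to 725 FPKM in WT CON and 288 to 548 in GFP-BM REPOP (exact permutation test, two-sided, p = 0.343). All 8 thalamus markers tested had positive values (median 0.42), with sums of 33.3 to 38.5 and 31.4 to 81.9 (exact permutation test p = 0.229). Both had an adjusted p of 0.714 over 7 marker lists, where 3 against 4 libraries allow no p under 0.029.

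Lymphocyte and neutrophil markers were mostly too low to be tested or not listed. Of 9 T cell markers 3 were in the table and 1 was tested, of 6 B cell markers 1 was tested, and of 8 neutrophil markers none was tested. No gene of these lists passed.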
